A study of Mus musculus with 18 samples.

Results

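The interferon regulatory factor (IRF) genes were followed across all 18 libraries of the series. They were chosen by name. The 8 genes Irf1, Irf2, Irf3, Irf4, Irf5, Irf7, Irf8 and Irf9 make up the group described here, out of 33440 genes with transcripts in the tables.

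RNA was sequenced from C57BL/6 mice in 2 experiments. In the first, SVF was isolated from iWAT of IRF3-2D mice and differentiated into adipocytes in culture. These mice have an Irf3 allele that Cre switches on and in which a pair of serines is replaced by aspartate, so that the protein is active without a stimulus. The cultures received AAV with Cre (FI3OE, 3 libraries) or AAV with GFP (WT, 3 libraries). WT cells thus carried the same allele before recombination, and Cre itself differed between the groups along with active IRF3. In the second, RNA on tagged ribosomes of adipocytes was pulled down by TRAP from frozen eWAT of mice fed HFD for 8 weeks at thermoneutrality. FI3KO mice (6 libraries) lacked Irf3 in adipocytes and WT mice (6 libraries) did not, and both carried the Ad-NuTRAP tag. The floxed allele is recombined by Adipoq-Cre, so other cells of the fat pad keep Irf3, and the labels give neither age nor sex. The study's methods name male mice for its metabolic work without naming the TRAP mice, and for the iWAT donors they name both sexes in one place and males in another. The labels call the libraries biological replicates without naming the animal or culture of each, so p-values measure the spread between these libraries.

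IRF proteins are transcription factors that bind DNA through a shared N-terminal domain. IRF3 and IRF7 wait in the cytoplasm until kinases such as TBK1 phosphorylate them downstream of toll-like receptors and sensors of foreign nucleic acid, and they then switch on type I interferon genes. Interferon in turn acts through its receptor on the complex ISGF3, of which STAT2 and IRF9 are parts. IRF1 is an activator induced by interferon-gamma and IRF2 is its counterpart on many of the same sites. IRF5 and IRF8 are known chiefly from macrophages and dendritic cells, and IRF4 from lymphocytes, macrophages and, in fat, from the control of lipolysis in fasting.

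On GRCm38, Irf3 was at chr7:44997648-45002848 and Irf7 at chr7:141262706-141266481. Irf2 was at chr8:46739732-46847458 and Irf8 at chr8:120736358-120756694. Irf1 was at chr11:53770014-53778374, Irf4 at chr13:30749226-30766976, Irf5 at chr6:29526625-29541871 and Irf9 at chr14:55603571-55610030. All are annotated as protein-coding. The last exon of Irf5 overlaps Tnpo3 on the other strand, and Irf3, Irf7, Irf9 and Irf1 each overlap a neighbour over a shorter stretch. Gm20388, a gene model at chr8:119910841-124345722 on the same strand, spans Irf8 and shares 0 exonic bases with it. It was at 0, 3.43 and 157 CPM (lowest, median and highest) in FI3KO TRAP, between 0 and 4.06 CPM in WT TRAP and at 0 in the cultures, and its part in the reads of Irf8 was not tested. The library kit did not mark strand, so reads in a stretch shared by opposite strands cannot be told apart.

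Promoters are shown for the IRF genes with the largest differences below (Irf7 and Irf8), for Irf1, which was higher in the mutant of both experiments, and for Irf2, the one promoter of the family with a match to the interferon-stimulated response element. They are RefSeq sequences of GRCm38.p6 on the strand of the gene, from 250 bases before to 50 bases after a start of the gene. The windows are chr7:141266375-141266674 (minus strand, Irf7), chr8:120736108-120736407 (plus strand, Irf8), chr11:53769764-53770063 (plus strand, Irf1) and chr8:46739495-46739794 (plus strand, Irf2). For Irf7 and Irf2 that start lies inside the coordinates given above. Capitals mark matches to the interferon-stimulated response element, GAAA, any 2 bases and GAAA again, or to the interferon-gamma activated site, spelled TTCNNNGAA, on either strand:
Irf7: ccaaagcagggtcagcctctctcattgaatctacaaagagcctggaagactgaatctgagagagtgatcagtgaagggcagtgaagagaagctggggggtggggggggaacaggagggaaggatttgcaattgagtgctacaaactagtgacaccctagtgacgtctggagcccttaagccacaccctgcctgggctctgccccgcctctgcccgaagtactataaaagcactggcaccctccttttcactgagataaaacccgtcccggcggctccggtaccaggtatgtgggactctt
Irf8: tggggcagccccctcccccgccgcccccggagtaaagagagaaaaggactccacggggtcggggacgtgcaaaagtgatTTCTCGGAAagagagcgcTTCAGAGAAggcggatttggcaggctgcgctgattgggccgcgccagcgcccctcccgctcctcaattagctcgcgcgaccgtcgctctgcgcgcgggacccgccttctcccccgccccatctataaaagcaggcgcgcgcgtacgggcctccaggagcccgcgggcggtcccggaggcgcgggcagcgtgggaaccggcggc
Irf1: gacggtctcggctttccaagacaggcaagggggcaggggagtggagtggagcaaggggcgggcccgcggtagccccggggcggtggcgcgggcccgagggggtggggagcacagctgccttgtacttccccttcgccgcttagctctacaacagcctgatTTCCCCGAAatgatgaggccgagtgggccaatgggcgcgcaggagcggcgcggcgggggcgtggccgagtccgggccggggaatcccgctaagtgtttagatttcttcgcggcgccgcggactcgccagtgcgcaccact
Irf2: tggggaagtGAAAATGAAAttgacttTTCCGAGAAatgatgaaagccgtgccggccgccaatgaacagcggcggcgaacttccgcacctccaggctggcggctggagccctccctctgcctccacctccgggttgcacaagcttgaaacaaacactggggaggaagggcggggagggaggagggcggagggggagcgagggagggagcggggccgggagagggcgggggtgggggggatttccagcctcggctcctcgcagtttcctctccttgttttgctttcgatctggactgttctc
The former were found in 1 of the 11 promoters listed for the 8 genes and in 3.44% of all 32851 promoters of this length. The latter were found in 3 of the 11 and in 8.3% of all promoters. The matches stood 90 bases before the start in Irf1, at 171 and 153 bases before it in Irf8, and at 241 bases (response element) and 224 bases (activated site) before it in Irf2, counted to the first base of each. No match overlapped another. The Irf7 window held neither set of letters, but it is not the 250 bases before the gene as placed above.

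Before the comparisons, the libraries were checked against their labels. Libraries held between 21541334 and 36932452 reads in SVF-derived adipocytes and between 25259869 and 40490283 in TRAP. The 18 adipocyte markers summed to 13661 to 14602 CPM in the cultures and to 42554 to 55059 CPM in TRAP. The 20 macrophage markers summed to 2828 to 3026 CPM in the cultures, which therefore also held macrophage RNA, and to 19.3 to 163 CPM in TRAP. Replicates of one genotype were compared by the mean chi-square per gene, which is about 1 when they differ by counting noise alone. In FI3KO TRAP, replicates 1 and 2 stood apart from replicates 3 to 6, with 124 to 299 across the sets and 18.5 to 95.2 within them. In WT TRAP it was 83.4 to 146 across the sets, 2.57 between replicates 1 and 2 and 9.14 to 141 among replicates 3 to 6, so the latter range overlaps that across the sets.

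The level of each gene in WT cells was compared per length, as the authors' TPM. In WT SVF-derived adipocytes Irf7 was the most abundant of the 8 genes at 310 ± 13.7 TPM (SD, n = 3). Irf3 followed at 168 ± 10.6 TPM and Irf1 at 85.0 ± 0.584 TPM. None of these 3 genes overlapped its neighbour in the order. Irf2 (57.5 ± 2.68 TPM) and Irf9 (52.1 ± 2.9 TPM) came next with overlapping ranges, although Irf2 was above Irf9 in 3 of 3 libraries. Irf5 reached 22.4 ± 1.85 TPM, Irf8 16.9 ± 1.97 TPM and Irf4 9.6 ± 0.599 TPM. The order from Irf5 to Irf4 held without overlap.

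The order in WT TRAP was another one. Irf3 led with 44.4 ± 3.43 TPM (SD, n = 6) and Irf8 was next at 40.5 ± 18.3 TPM. The ranges of these 2 genes overlapped, and Irf3 was above Irf8 in 3 of 6 libraries. Irf8 also overlapped Irf1, which was above it in replicates 1 and 2. Irf1 (21.4 ± 1.7 TPM) and Irf2 (19.1 ± 4.31 TPM) also overlapped, with Irf1 higher in 5 of 6 libraries. Irf9 (6.25 ± 0.698 TPM) and Irf7 (5.94 ± 0.807 TPM) could not be ranked, since Irf9 was higher in 3 of 6. Irf5 at 1.88 ± 1.1 TPM and Irf4 at 0.492 ± 0.187 TPM were lowest, and their ranges overlapped, although Irf5 was above Irf4 in 6 of 6 libraries. The most abundant IRF gene of the cultures, Irf7, was thus sixth by its mean in TRAP. The groups differ in depot, diet, culture and RNA fraction, so no test was made between them.

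**Figure D1:**
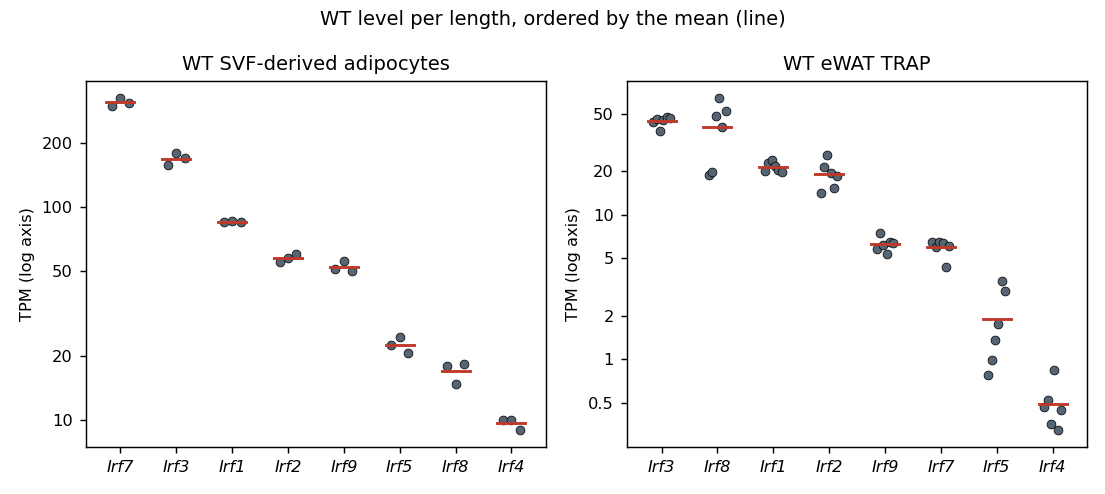
Level of the 8 IRF genes in WT libraries, in TPM on a log axis, ordered by the mean (line), with 1 point per library. Irf7 leads in the 3 SVF-derived libraries at 298 to 325 TPM, while Irf3 and Irf8 have the highest means in the 6 TRAP libraries and overlap, with Irf8 spread from 18.7 to 64.4 TPM.

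The first comparison asked how active IRF3 in cultured adipocytes changes the rest of the family. Irf7, Irf3, Irf1, Irf9 and Irf5 rose in FI3OE and Irf4 fell. Irf2 and Irf8 did not pass the test. Of the 8 genes, 6 passed a false discovery rate of 0.05 in edgeR's quasi-likelihood test, where 37.0% of all 16105 genes tested did. When the log2 fold change also had to reach 1 in size, Irf7 alone passed, where 3.62% of all genes did. The groups did not overlap in CPM for the same 6 genes, as for 49.8% of all genes tested. The median log2 fold change was 0.46 over the 8 genes and -0.005 over all genes tested.

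Irf7 is the family member that interferon itself induces most and that amplifies the response. It was measured at 242, 262 and 240 CPM in WT replicates 1 to 3 and at 562, 606 and 560 CPM in FI3OE. Every FI3OE library was above every WT library by a wide margin. The log2 fold change was 1.23 (SE 0.048, adjusted p = 8.14e-09), or 2.35-fold.

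Irf3 is the gene whose active form the cells were made to express. Its counts were 58.6, 56.9 and 56.8 CPM in WT and 92.1, 100 and 90.8 CPM in FI3OE. The groups did not overlap, with a log2 fold change of 0.73 (SE 0.0464, adjusted p = 3.3e-07 in edgeR). With the offset for transcript length it was 0.46 (adjusted p = 0.00219). Reads of the IRF3-2D allele and of the endogenous gene cannot be told apart in these tables.

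Irf9 and Irf1 moved by a similar amount. Irf9, the DNA-binding part of ISGF3, was at 62.8, 66.5 and 61.7 CPM in WT and at 95.7, 103 and 92.6 CPM in FI3OE (log2 fold change 0.62, SE 0.049, adjusted p = 1.83e-06 in edgeR). Irf1 was at 65.4, 61.6 and 60.5 CPM in WT and at 95.0, 103 and 90.7 CPM in FI3OE (0.64, SE 0.0515, adjusted p = 2.33e-06). For both genes the lowest FI3OE library was well above the highest WT library.

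Irf4 went the other way. It was at 26.9, 24.8 and 24.2 CPM in WT and at 13.8, 15.3 and 13.5 CPM in FI3OE. No FI3OE library reached the lowest WT library, and the log2 fold change was -0.82 (SE 0.0693, adjusted p = 3.36e-06 in edgeR). It was the only one of the 8 genes to fall in this comparison.

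The genes best known from macrophages differed less. Irf5 was at 17.2, 16.6 and 16.3 CPM in WT and at 18.6, 20.9 and 20.8 CPM in FI3OE, with a log2 fold change of 0.29 (SE 0.0676, adjusted p = 0.00581 in edgeR). Its groups did not overlap, but its adjusted p was 0.0952 with an offset for transcript length and 0.818 in a fit of all 18 libraries. Irf8 was at 14.4, 14.2 and 18 CPM in WT and at 15.6, 18.4 and 17.9 CPM in FI3OE, which overlap (0.17, SE 0.102, adjusted p = 0.207). Without WT replicate 3 the log2 fold change of Irf8 was 0.30 (adjusted p = 0.029). Of the 20 macrophage markers, 6 rose and 4 fell in FI3OE, where 37.0% of all genes passed. The list's median was 0.035 on the log2 scale. Their summed level was 2870 to 2926 CPM in FI3OE and 2828 to 3026 CPM in WT. Of the 18 adipocyte markers, 4 rose and 10 fell (median -0.19), and their sums were 13661 to 13722 CPM in FI3OE and 14429 to 14602 CPM in WT, without overlap. The 12 fibroblast and preadipocyte markers summed to 20917 to 21003 CPM in FI3OE and 19710 to 20264 CPM in WT, where 4 rose and 2 fell. The part of these differences in the values of the IRF genes was not tested. Spi1, the transcription factor PU.1 that pairs with IRF4 and IRF8, was at 16.7 to 17.8 CPM in FI3OE and at 16.5 to 18.4 CPM in WT. Irf2 was at 37.9, 34.2 and 36.2 CPM in WT and at 38.7, 32.7 and 32.0 CPM in FI3OE, also with overlap (-0.06, SE 0.0693, adjusted p = 0.571).

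**Figure D2:**
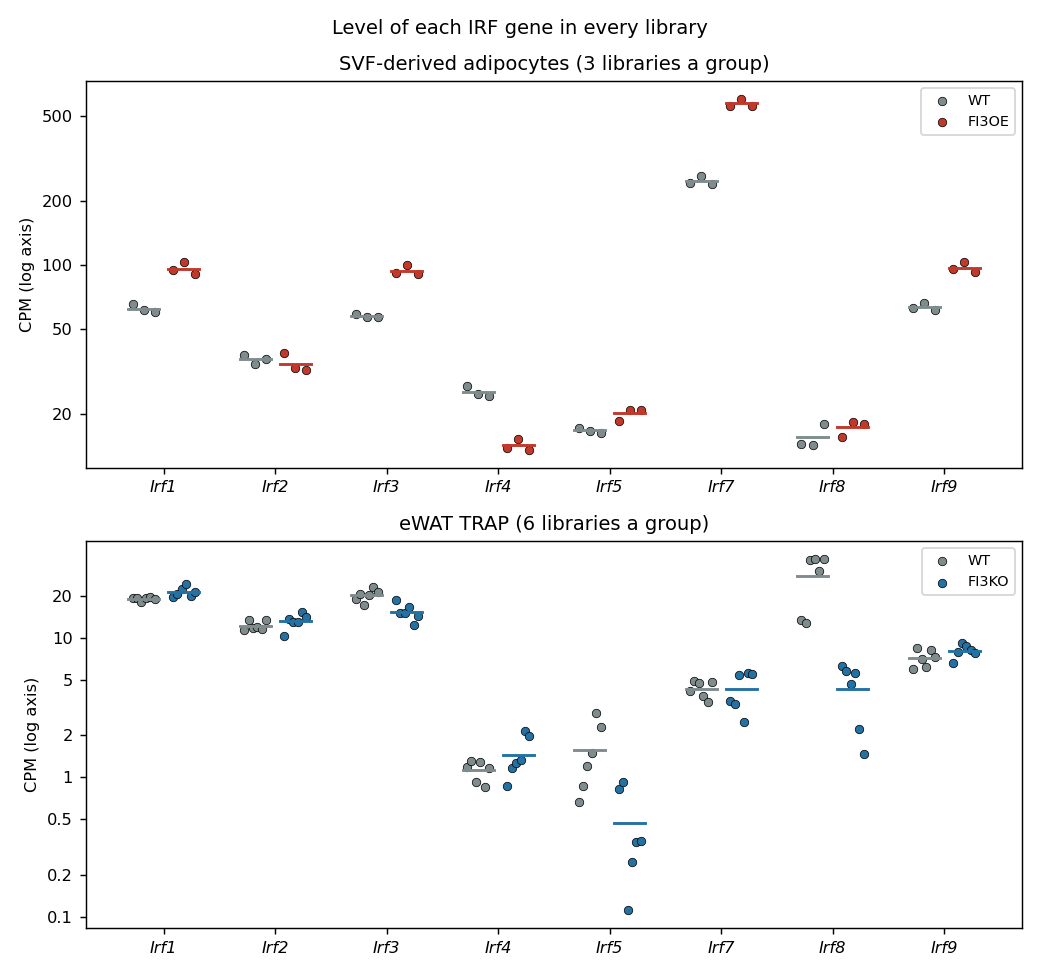
CPM of the 8 IRF genes on a log axis, with 1 point per library and a line at the mean of each group. In the SVF-derived libraries FI3OE lies apart from WT for Irf1, Irf3, Irf4, Irf5, Irf7 and Irf9, and in the TRAP libraries FI3KO lies apart from WT for Irf8.

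Other genes of the pathway were read from the same fit. Of 20 sensors, adaptors and kinases upstream of IRF3 and IRF7, 7 were higher and 2 lower in FI3OE (median log2 fold change 0.09). Among all genes tested, 37.0% passed in either direction. Ifih1 and Rigi, which sense viral RNA in the cytoplasm, rose by 1.02 (SE 0.0406) and 0.98 (SE 0.0439) on the log2 scale, with adjusted p = 9.5e-09 and 1.95e-08. Tlr3, the receptor for double-stranded RNA, rose by 0.96 (SE 0.0632, adjusted p = 4.45e-07), and Ticam2, an adaptor of TLR4, fell by 0.48 (SE 0.141, adjusted p = 0.0189). Tbk1, the kinase that phosphorylates IRF3, did not pass, at 50.9 to 52.6 CPM in WT and 53.4 to 57.1 CPM in FI3OE (0.10, SE 0.0418, adjusted p = 0.071).

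Downstream of interferon, 5 of 13 receptor and ISGF3 genes rose and 2 fell, with a median of 0.13, where 37.0% of all genes passed. Stat2 rose from 140 to 149 CPM in WT to 237 to 265 CPM in FI3OE (0.83, SE 0.0473, adjusted p = 1.29e-07). Irf9, which binds with STAT2 in ISGF3, passed the test in the same direction. Usp18, which dampens signaling at the interferon receptor, had the largest difference of the list (1.41, SE 0.0549, adjusted p = 8.14e-09). The receptor chain Ifnar2 rose by 0.36 (adjusted p = 0.000315). The 2 that fell were the other receptor chain, Ifnar1, by 0.23 (adjusted p = 0.000555) and Ifngr1 by 0.17 (adjusted p = 0.00371). The interferon genes themselves were near the limit of detection. Of 21 interferon genes, only Ifnk and Ifnz had more than 3 reads in any library of either group. Ifnz was at 0.27 to 1.31 CPM in WT and 0.8 to 1.46 CPM in FI3OE and did not pass the test (adjusted p = 0.289).

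Of 15 partners and co-regulators of IRF proteins, 13 were tested, and 2 rose and 2 fell, where 37.0% of all genes passed. Trim21, a ubiquitin ligase that acts on IRF3, rose by 0.94 (SE 0.0659, adjusted p = 7.43e-07) and Irf2bpl by 0.51 (SE 0.0443, adjusted p = 4.38e-06). Prdm16 and Ppargc1a, regulators of the thermogenic program of brown fat, fell by 0.38 (SE 0.111, adjusted p = 0.0181) and by 0.21 (SE 0.0744, adjusted p = 0.0478).

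The second comparison asked what the loss of Irf3 does to the family in adipocytes in vivo. Irf8, Irf5 and Irf3 fell in FI3KO and Irf1 rose slightly. Irf2, Irf4, Irf7 and Irf9 did not pass the test. Of the 8 genes, 4 passed the false discovery rate, against 37.4% of the 13624 genes tested. Irf5 and Irf8 passed both cutoffs, as did 6.61% of all genes. Irf8 alone had groups that did not overlap in CPM, as 15.2% of all genes tested did. The median log2 fold change was 0.1 over the 8 genes and 0.016 over all genes tested. With an offset for transcript length, Irf3 turned to a rise of 0.71 (adjusted p = 0.00181 in edgeR), and Irf1 and Irf5 did not pass. With a replicate block only Irf8 passed, although replicate numbers did not pair the libraries.

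**Figure D3:**
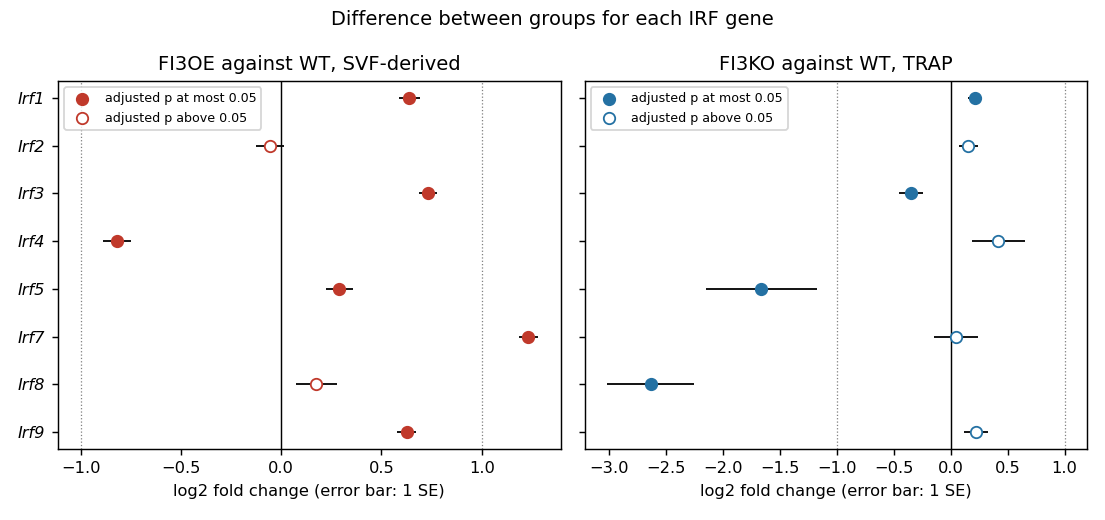
Fitted log2 fold changes of the 8 IRF genes with 1 SE, for FI3OE against WT in SVF-derived adipocytes and for FI3KO against WT in TRAP. Filled points passed the false discovery rate of 0.05 and dotted lines mark a log2 fold change of 1 in size. Irf7 and Irf4 lie farthest from 0 in the first comparison, and Irf8 and Irf5 in the second.

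Irf3 itself was read first, since it checks the labels. Its summed reads gave 12.4, 15.2 and 18.8 CPM (lowest, median and highest) in FI3KO and 17.2, 20.6 and 23.2 CPM in WT. The groups overlapped, with a log2 fold change of -0.35 (SE 0.106, adjusted p = 0.0198 in edgeR). The deletion was plain in the transcripts. Irf3-202, a protein-coding transcript of 1429 bases and 8 exons at chr7:44997949-45002389, had 0 reads in 6 of 6 FI3KO libraries. In WT it had 274.5, 388.1, 238.3, 325.2, 163.6 and 194.4 reads in replicates 1 to 6, or 40.4% ± 9.36 (SD, n = 6) of all Irf3 reads.

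Reads in FI3KO lay on other transcripts. Irf3-211, a short transcript of 369 bases and 3 exons that covers the 3′ part of the gene (chr7:45000748-45002347), held 29.8% ± 6.17 of Irf3 reads in FI3KO and 0.571% ± 0.626 in WT (SD, n = 6 each). Its reads numbered 89.9 to 175 in FI3KO and 0 to 7.65 in WT. Irf3-210, which has a retained intron and starts farther 3′ still, held 8.19% ± 2.03 in FI3KO and 0.978% ± 0.378 in WT. Irf3-207, a transcript with a retained intron over most of the gene, held 21% ± 6.15 against 39.9% ± 3.54. For each of these 4 transcripts the groups did not overlap, and the two-sided exact permutation test gave p = 0.00216, the smallest it can give, and 0.00433 adjusted over the 8 transcripts compared. Irf3-201 (13.1% against 4.37%) and Irf3-213 (23.4% against 10.7%) had higher shares in FI3KO with overlapping groups (adjusted p = 0.0404 each in the exact permutation test). As a share of Irf3 TPM neither passed (adjusted p = 0.465 for Irf3-201 and 0.987 for Irf3-213 in the same exact test). Both are annotated over the full gene, so a share of the reads in FI3KO was still placed on models with all 8 exons. The assignment is Salmon's estimate among transcripts that share most exons, and all 12 TRAP libraries matched their labels by Irf3-202.

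The level per length went the other way. Summed TPM of Irf3 was 55.1, 66.8 and 93.5 (lowest, median and highest) in FI3KO and 37.8, 45.2 and 47.3 in WT, which is higher in every FI3KO library. With an offset for the average transcript length, the log2 fold change of Irf3 turned to 0.71 (adjusted p = 0.00181 in edgeR).

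In the cultures the same transcript moved upward. Irf3-202 had 615.4, 539.2 and 639.7 reads in WT and 1368.2, 1728.7 and 2193.3 reads in FI3OE. It held 44.1% ± 0.231 of Irf3 reads in WT and 64.0% ± 1.34 in FI3OE (SD, n = 3 each). The groups did not overlap, but the two-sided exact permutation test cannot go below p = 0.1 with 3 libraries against 3, and that is the value it gave.

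**Figure D4:**
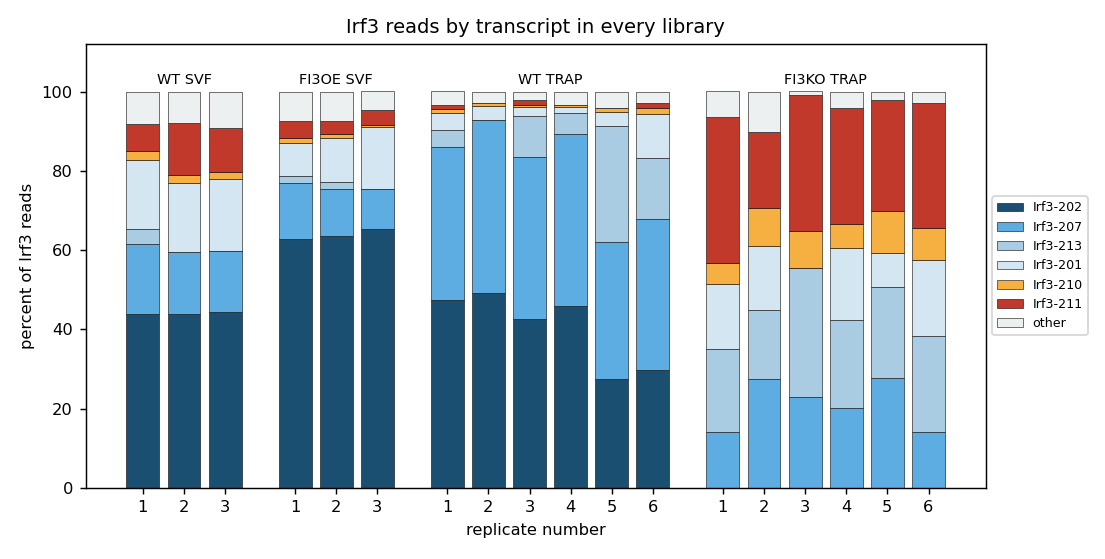
Percent of Irf3 reads placed on each Irf3 transcript, 1 bar per library. Irf3-202 makes up 62.8 to 65.4% in FI3OE, 43.9 to 44.3% in WT SVF-derived adipocytes, 27.5 to 49.1% in WT TRAP and 0 in FI3KO TRAP, where Irf3-211 takes 19.1 to 36.8%.

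Irf8 had the largest difference of the family. It was at 13.5, 12.8, 36.5, 37.0, 30.5 and 37.1 CPM in WT replicates 1 to 6 and at 6.29, 5.8, 4.66, 5.6, 2.22 and 1.47 CPM in FI3KO. The highest FI3KO library was below the lowest WT library, and WT replicates 1 and 2 lay far below WT replicates 3 to 6. The log2 fold change was -2.63 (SE 0.382, adjusted p = 0.000374 in edgeR). Within replicates 3 to 6 it was -3.31 (adjusted p = 1.6e-05) and within replicates 1 and 2 it was -1.06 (adjusted p = 0.0228). The difference between these effects was -2.25 (SE 0.477, adjusted p = 0.00506 for the interaction in edgeR). WT replicates 1 and 2 were unusually close, with a mean chi-square per gene of 2.57. The lowest value was 9.14 among the other TRAP pairs and 4.1 among the pairs of cultures. The labels do not tell whether these 2 libraries come from separate animals. The p-values within replicates 1 and 2 and of the interaction may therefore be too small.

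Irf5 is an activator of inflammatory genes in macrophages. It was at 0.664, 0.87, 1.2, 1.5, 2.88 and 2.29 CPM in WT and at 0.831, 0.934, 0.111, 0.247, 0.346 and 0.352 CPM in FI3KO. FI3KO was below WT in replicates 3 to 6, while in replicates 1 and 2 the values of both genotypes lay together. The log2 fold change was -1.67 (SE 0.487, adjusted p = 0.0174 in edgeR) over all libraries, -2.79 (adjusted p = 0.00027) within replicates 3 to 6 and 0.26 (adjusted p = 0.628) within replicates 1 and 2. The interaction was -3.04 (SE 0.609, adjusted p = 0.00353). Over all libraries with the length offset the log2 fold change of Irf5 was -1.27 (adjusted p = 0.094). Of the 8 genes, Irf5 and Irf8 passed the test of the interaction, a share close to the 26.5% of all genes tested. Tnpo3, which overlaps the end of Irf5 on the other strand, was at 140 to 176 CPM in FI3KO and 170 to 205 CPM in WT, and its part in the reads of Irf5 was not tested.

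Markers of macrophages moved with both genes. Of 20 markers 17 were tested, and 14 fell and 1 (Cd14) rose in FI3KO, where 37.4% of all genes passed. The markers' median log2 fold change was -1.6. Their summed level was 19.3, 22.3 and 57.0 CPM (lowest, median and highest) in FI3KO and 45.8, 97.5 and 163 CPM in WT. In replicates 1 and 2 the sums were 44.4 and 57.0 CPM in FI3KO and 46.9 and 45.8 CPM in WT. These sums thus overlapped between genotypes in replicates in which Irf8 was still lower in FI3KO. Lyz2, which has the highest mean CPM of the list over all 18 libraries, was at 2.86 to 9.48 CPM in FI3KO and 9.43 to 24.7 CPM in WT. Mrc1 was at 1.89 to 7.34 CPM in FI3KO and 4.77 to 13.5 CPM in WT. Spi1, the myeloid partner of IRF8, was at 0 to 0.419 CPM in FI3KO and 0.199 to 1.07 CPM in WT, with a log2 fold change of -2.02 (SE 0.632, adjusted p = 0.0235 in edgeR). In bulk RNA, fewer cells of a type and less RNA per cell cannot be told apart, and the part of macrophage RNA in the fall of Irf5 and Irf8 was not tested.

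Lists for other cell types gave the following, beside the 37.4% of all genes tested that passed. Of 8 dendritic cell markers 2 were tested, where Itgax fell and Zbtb46 rose, and the list summed to 11.7 to 16.4 CPM in FI3KO and 17.4 to 23.7 CPM in WT. In replicates 1 and 2, in which Irf8 was also lower in FI3KO, Itgax was at 4.01 and 4.82 CPM in FI3KO and at 10.2 and 10.6 CPM in WT. The list's sums there were 14.4 and 16.4 CPM in FI3KO and 20.8 and 20.7 CPM in WT, so they did not overlap. Zbtb46 was at 9.94 and 10.8 CPM in FI3KO and at 9.72 and 9.07 CPM in WT in these replicates, so the gap in the sums came from Itgax. The part of dendritic cell RNA in the fall of Irf8 was not tested. Of 13 lymphocyte markers only Ptprc was tested, and it fell. It made up most of the list's sum, and Cd3d was at 0 to 0.198 CPM in TRAP. The list therefore says little about lymphocytes here. The endothelial list summed to 39.2 to 170 CPM in FI3KO and 42.3 to 82.1 CPM in WT. The fibroblast and preadipocyte list summed to 930 to 1668 CPM in FI3KO and 1447 to 2706 CPM in WT. Of its 12 genes 11 were tested, where 4 fell and 1 rose (median -0.25). In replicates 3 to 6 the list's sums were 930 to 1390 CPM in FI3KO and 1929 to 2706 CPM in WT. In replicates 1 and 2 they were 1668 and 1468 CPM in FI3KO and 1467 and 1447 CPM in WT. Col1a1 fell by 1.82 (adjusted p = 0.0043 in edgeR), at 113 to 504 CPM in FI3KO and 501 to 1480 CPM in WT. Col3a1 did not pass (-0.17, adjusted p = 0.446), and the gene that rose was Dcn (1.36, adjusted p = 0.00117). In replicates 3 to 6 Col1a1 was at 113 to 246 CPM in FI3KO and 993 to 1480 CPM in WT. Col3a1 overlapped there, at 337 to 603 and 515 to 686 CPM, so the gap in the sums lay largely in Col1a1. The part of this list's RNA in the fall of Irf8 was not tested. The mesothelial list was at 3.77 to 18.6 CPM in FI3KO and 5.07 to 34.2 CPM in WT. The adipocyte list summed to 42554 to 48839 CPM in FI3KO and 48156 to 55059 CPM in WT, but 7 of its 18 genes rose and 2 fell, with a median log2 fold change of 0.22. Over all 18 libraries the genes with the highest mean CPM were Ptprb and Kdr in the endothelial list, Col1a1 and Col3a1 in the fibroblast list, Msln and Krt19 in the mesothelial list and Lpl and Dgat2 in the adipocyte list. In TRAP, Krt19 was at 0.155 to 1.75 CPM. No gene of these lists was at 0 in all 18 libraries.

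**Figure D5:**
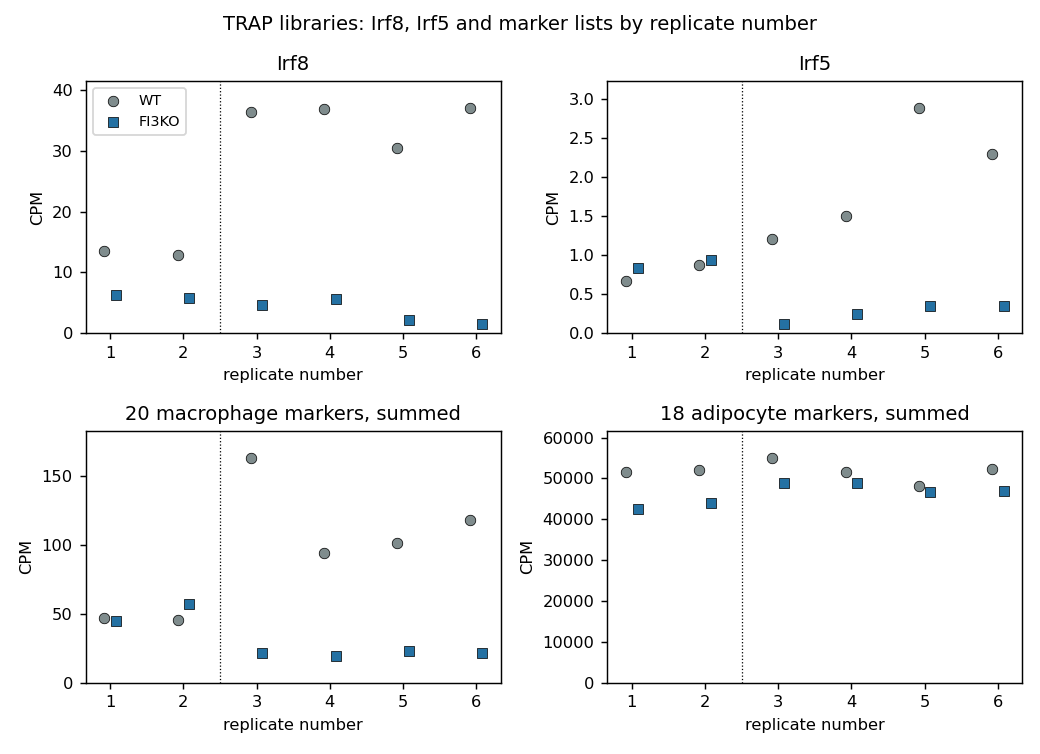
CPM of Irf8 and Irf5 and summed CPM of the macrophage and adipocyte markers in the 12 TRAP libraries by replicate number, with a dotted line between replicates 2 and 3. Irf8 is below WT in FI3KO at every number, whereas Irf5 and the macrophage sum lie apart only from replicate 3 on, with FI3KO macrophage sums of 19.3 to 22.8 CPM there.

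The other genes differed little. Irf1 was at 19.6, 21.2 and 24.5 CPM (lowest, median and highest) in FI3KO and at 18.3, 19.3 and 19.6 CPM in WT. The log2 fold change was 0.21 (SE 0.0582, adjusted p = 0.0132 in edgeR), and 5 of 6 FI3KO libraries were above the highest WT library. With the length offset its adjusted p was 0.0707. Irf9 was at 6.61, 8.1 and 9.29 CPM in FI3KO and at 6.04, 7.19 and 8.49 CPM in WT (0.22, adjusted p = 0.113). Irf2 was at 10.3, 13.5 and 15.3 CPM in FI3KO and at 11.4, 12.0 and 13.6 CPM in WT (0.15, adjusted p = 0.179). Both pairs of groups overlapped.

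Irf7, which had the largest rise with active IRF3 in culture, was at 2.51, 4.46 and 5.66 CPM in FI3KO and at 3.46, 4.45 and 4.9 CPM in WT (log2 fold change 0.04, adjusted p = 0.875 in edgeR). Irf4 was at 0.871, 1.29 and 2.15 CPM in FI3KO and at 0.855, 1.18 and 1.32 CPM in WT (0.42, adjusted p = 0.176). Neither gene separated the genotypes over all 12 libraries. Within replicates 3 to 6 alone, Irf4 rose by 0.71 (adjusted p = 0.0403), Irf2 by 0.23 (adjusted p = 0.0407) and Irf9 by 0.30 (adjusted p = 0.0323), and the interaction of none of these 3 genes passed the test (adjusted p = 0.112, 0.357 and 0.431 in edgeR).

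Upstream of the family, 17 sensors, adaptors and kinases were tested in TRAP, of which 3 rose and 6 fell. Among all genes tested, 37.4% passed in either direction. Tank, an adaptor of TBK1, was at 45.2 to 70.6 CPM in FI3KO and at 79.1 to 145 CPM in WT (-0.79, SE 0.138, adjusted p = 0.00107 in edgeR). Ikbke, the kinase related to TBK1, fell by 0.74 (SE 0.211, adjusted p = 0.0155), Tlr3 by 0.56 (SE 0.103, adjusted p = 0.00154), Traf3 by 0.38 (SE 0.0911, adjusted p = 0.00677) and Tbk1 by 0.30 (SE 0.0735, adjusted p = 0.00717). Tlr3 thus passed the test in both experiments, higher in FI3OE and lower in FI3KO. Ikbke did so too, with a rise of 0.169 in FI3OE (adjusted p = 0.0441 in edgeR). Traf6 rose in both, by 0.165 in FI3OE (adjusted p = 0.0236) and by 0.278 in FI3KO (adjusted p = 0.0104). Irak4 fell in both, with -0.233 in FI3OE (adjusted p = 0.0127) and -0.321 in FI3KO (adjusted p = 0.0218). The share of all genes that passed in both experiments is not given here.

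Of 13 receptor and ISGF3 genes, 1 rose and 6 fell in FI3KO, where 37.4% of all genes passed. The receptor chains Ifngr2 and Ifnar2 fell by 0.50 (SE 0.055, adjusted p = 0.000102) and by 0.49 (SE 0.0624, adjusted p = 0.000176). Ifnar2 had risen in FI3OE. Ifnar1 and Ifngr1, which fell in FI3OE, fell here too, by 0.31 (adjusted p = 0.00271 in edgeR) and by 0.37 (adjusted p = 0.0348). Stat3 fell by 0.45 (SE 0.0956, adjusted p = 0.00335) and Socs1, an inhibitor of JAK kinases, rose by 1.15 (SE 0.35, adjusted p = 0.0205). Stat2 did not pass, at 9.29 to 11.4 CPM in FI3KO and 8.32 to 12.3 CPM in WT (0.04, adjusted p = 0.787). Among 10 partners tested, 2 rose and 1 fell. Irf2bp1 and Irf2bp2, corepressors that bind IRF2, rose by 0.64 (SE 0.0913, adjusted p = 0.000335) and by 0.33 (SE 0.0601, adjusted p = 0.00127). None of the 21 interferon genes had enough reads to be tested.

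The genes whose pattern over the 12 TRAP libraries was most like that of each member were named from 10911 genes by Pearson's r of log2 CPM, as a description. Irf8 was followed most closely by Mylk (r = 0.997), Sh3pxd2b (0.994) and Loxl4 (0.992), which are a myosin kinase, an adaptor of podosomes and a lysyl oxidase. Mylk was at 90.9 to 162 CPM in FI3KO and at 214 to 378 CPM in WT. Within the 6 FI3KO libraries r with Irf8 was 0.987 for Mylk, 0.977 for Sh3pxd2b and 0.981 for Loxl4, and within the 6 WT libraries it was 0.997, 0.996 and 0.942. The points share their libraries. In WT, Irf8 in replicates 1 and 2 lay below that in replicates 3 to 6. In FI3KO it was lowest in replicates 5 and 6, at 2.22 and 1.47 CPM. For Irf1 the nearest genes were Pdp2 (0.972), Marcks (0.956) and Slc25a4 (0.955), and for Irf3 they were Grn (0.922), Btaf1 (0.922) and Gm14444 (0.892). For Irf2 they were Cradd (0.908), Fastkd1 (0.902) and Sf3a3 (0.9), for Irf7 Zc3h12b (0.893), Lipt2 (0.886) and Zfp758 (0.868), and for Irf9 B230219D22Rik (0.827), Zfp235 (0.824) and Atat1 (0.819). For the genes named for Irf1, Irf2, Irf3, Irf7 and Irf9, r within the 6 WT libraries ran from 0.441 (Zfp758) to 0.984 (Pdp2). Within the 6 FI3KO libraries it ran from 0.765 (B230219D22Rik) to 0.978 (Sf3a3). Irf4 and Irf5 were too low in TRAP to be compared in this way.

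Side by side, Irf7 rose by 1.23 on the log2 scale with active IRF3 in culture and had a value of 0.04 after loss of Irf3 in vivo, and Irf8 had values of 0.17 and -2.63. The experiments share no libraries and differ in depot, diet, culture and RNA fraction, and the difference between their effects was not tested.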

How the data were processed

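RNA-seq libraries were prepared by the authors with Ribo-Zero depletion and Nextera XT. Per the labels and the study's methods, reads were trimmed with bcl2fastq and fastp and quantified with Salmon (version 1.4.0) against GENCODE M24 transcripts of GRCm38. For each library the authors deposited Salmon's estimated counts, TPM and effective lengths for 118733 transcripts. Here 117850 transcripts (99.3%) were assigned to genes with GENCODE M21 by identifier, while the remaining 883 each stood for a separate gene. Counts were summed per gene and rounded, and CPM were scaled to the library's summed counts. The TPM that the authors deposited were summed per gene for levels compared between genes.

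SVF and TRAP libraries were fitted separately in edgeR 4.0.16 (R 4.3.3) with filterByExpr, TMM, no covariates, the quasi-likelihood test and Benjamini-Hochberg adjustment over all genes tested. Adjusted p-values of genes come from these fits unless the text names another edgeR fit (length offset, all 18 libraries, a left-out library, a replicate set or the interaction with it). Exact permutation tests were run in scipy 1.17.1. DESeq2 1.42.0 was an alternative. The fit was tested on simulated data with 200 changed genes. Named genes were the IRF genes, up to 4 genes past the false discovery rate with the largest log2 fold change from each pathway list and comparison (with Tbk1, Stat2 and Spi1 always), the 2 most abundant genes of each marker list, and the 3 genes most like each member. The 8 members, the lists and the tests were chosen with earlier results of these data known. Cd14, Dcn, Tnpo3, Gm20388, Traf6, Irak4, Ifnar1, Ifngr1 and the single genes tested of short lists were named after their values were seen. The 3-read limit covers counting error only. Some genes are not reported here.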

Additional observations from a re-analysis of the deposited data

Results flagged for a closer look

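The effect of FI3KO differed between TRAP replicates 3 to 6 and replicates 1 and 2 for 2 of the 8 IRF genes, by the test of the interaction in edgeR. This share is close to the 26.5% of all genes tested that passed it, so the count says nothing particular about these genes. For Irf5 the difference of the log2 fold changes was -3.04 (adjusted p = 0.00353), and for Irf8 it was -2.25 (adjusted p = 0.00506). Both rest in part on the close pair of WT replicates 1 and 2. The sets of replicates were known from an earlier analysis of these data and have no name in the labels, so their origin cannot be told from the sources used here. A sample far from the others was looked for in 30 groups of 6 libraries (the 8 genes and the 7 marker lists in each genotype), and none was found, where chance gives about 1 in 20 groups.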

How the results depend on the processing

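In SVF-derived adipocytes the number of IRF genes past the false discovery rate and past both cutoffs stayed within 1.5 times of the reported count under all 14 alternatives. Among log2 fold changes there, the 3 that changed their side of the threshold were those of Irf5 (length offset and 18-library fit) and Irf8 (without WT replicate 3), given above. In TRAP the reported count of 4 genes past the false discovery rate was 2 with the length offset, 7 in replicates 3 to 6 only and 1 in replicates 1 and 2 only. The share of all genes that passed in each of these fits is not given here, so the counts are not read as a result about the family. The count of 2 past both cutoffs was 1 with the length offset, 1 with at least 10 counts in every library (which leaves Irf5 untested) and 1 in replicates 1 and 2 only. The cause of the other changes was not tested. Leaving out each TRAP library in turn kept Irf1, Irf3, Irf5 and Irf8 past the threshold, with log2 fold changes from -2.79 to -2.46 for Irf8, from -2.0 to -1.40 for Irf5 and from -0.44 to -0.30 for Irf3. The log2 fold change of Irf3 was reversed by the length offset, to 0.71. That of Irf7 lay near 0 and changed sign without single libraries (-0.053 to 0.168), and it was -0.34 in replicates 1 and 2 only. In these replicates Irf4 was at -0.24 and Irf5 at 0.26. Averaging WT TRAP replicates 1 and 2 into 1 library, chosen after seeing the data, changed no call in the fit over all TRAP libraries. It was not done for the fit within replicates 1 and 2 or for the interaction. The order of WT levels was the same by CPM per kilobase. That measure divides by the same effective lengths, weighted by TPM, so it nearly restates TPM and is no separate check. As a share of TPM, the difference of Irf3-213 in the cultures was 0.00783 and that of Irf3-212 in TRAP was -0.0223 percentage points, both reversed and close to 0, while Irf3-201 and Irf3-213 no longer passed in TRAP. Replicate numbers did not pair the libraries, since deviations of same-numbered libraries correlated between -0.046 and 0.015 in the cultures and between -0.293 and 0.104 in TRAP. With the replicate block the TRAP counts were 1 and 1 (Irf8), Irf7 was at -0.004, and the SVF counts stayed within 1.5 times. Irf5, Irf4 and Spi1 were at about 1 CPM or less in many TRAP libraries, which limits the precision of their values.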
